A study of Mus musculus with 12 samples.

Results

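Distal lung epithelium and surfactant genes were followed as a set of 10 genes, Sftpb, Sftpc, Abca3, Lamp3, Nkx2-1, Id2, Lpcat1, Napsa, Muc1 and Cebpa, chosen by symbol in the annotation of the bead array. The array carried 21 probes for them among 16593 named genes. All 10 genes passed the filter on dim probes, through 17 of the 21 probes, as did 8311 of the 16593 genes. The study set out from the role of ERK/MAPK signalling, the kinase cascade that runs through MEK1 and MEK2, in the growth of the airways and lungs, and measured total RNA of whole mouse lungs at stage E15.5 on 12 Illumina bead arrays, 4 to a genotype.

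All embryos were of the 129/Sv background and all carried Dermo1+/Cre, in which Cre recombinase is made from the Dermo1 (Twist2) locus, a driver active mainly in mesenchyme. The controls were labelled with no Mek1 or Mek2 mutation. The Mek1-heterozygous group (1 Mek1 allele in the plots) was Mek1+/flox;Mek2-/-;Dermo1+/Cre, so that 1 Mek1 allele stays after recombination. The double mutants were Mek1flox/flox;Mek2-/-;Dermo1+/Cre and lose Mek1 where Cre acts. Mek2 is a germline null in both mutant groups and is therefore missing from their epithelium as well, whereas Mek1 is deleted only in cells with a history of Cre. The genes described here were read over all cells of the lung, recombined mesenchyme included. Nothing in the labels tells a single lung from a pool of lungs, so p-values measure the spread between these specimens.

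At this stage the lung is a branching tree. Its distal tips hold progenitor cells that later give rise to alveolar type 1 and type 2 cells. Type 2 cells make surfactant, the film of lipid and protein that keeps air spaces open after birth, and store it in lamellar bodies. SFTPB and SFTPC are its small hydrophobic proteins, ABCA3 pumps its lipids into the lamellar body, LPCAT1 makes its main phospholipid, LAMP3 lies in the lamellar body membrane, and NAPSA is a protease that processes the SFTPB precursor. NKX2-1 is the transcription factor that defines lung epithelium and drives surfactant genes, CEBPA is a factor of type 2 cell maturation, ID2 is an inhibitor of basic helix-loop-helix factors that marks the distal tip, and MUC1 is a membrane mucin on the apical surface of lung and many other epithelia. Outside the epithelium, Id2 and Cebpa are also expressed by other cells.

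The RefSeq promoter table for GRCm38.p6 held 8 of the 10 genes. It held no entry for Sftpc and Napsa. Each entry was searched on both strands, over the 250 bases before the transcription start, for CTCAAG, the core of many NKX2-1 sites, and for TATAA, the core of a TATA box. Sftpb and Muc1 are printed because Sftpb was the gene with CTCAAG and Muc1 the gene whose level changed. The Sftpb stretch is chr6:72304360-72304609 on the plus strand, the Muc1 stretch chr3:89228806-89229055 on the plus strand, and capitals mark the matches.
Sftpb: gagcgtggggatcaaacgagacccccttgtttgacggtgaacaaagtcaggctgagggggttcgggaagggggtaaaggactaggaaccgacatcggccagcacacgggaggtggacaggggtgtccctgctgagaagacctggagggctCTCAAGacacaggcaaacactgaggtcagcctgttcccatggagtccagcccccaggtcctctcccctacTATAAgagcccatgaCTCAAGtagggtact
Muc1: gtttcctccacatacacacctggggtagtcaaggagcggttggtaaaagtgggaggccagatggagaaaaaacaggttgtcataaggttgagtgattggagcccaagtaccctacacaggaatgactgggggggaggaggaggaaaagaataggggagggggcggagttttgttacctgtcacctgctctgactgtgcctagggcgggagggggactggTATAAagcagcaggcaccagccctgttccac
Sftpb held CTCAAG at 100 and at 15 bases before its start, both on the strand of the gene, and TATAA at 30. CTCAAG occurred in 1 of the 8 promoters, against 13.3% of 32851 promoters in the table, of which 0.998% held it more than once. TATAA occurred in 3 of the 8 (Sftpb, Muc1 at 31 bases and Cebpa at 30 bases before the start), against 22.8% of all promoters. These matches describe letters in the windows and are not evidence of binding.

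The 12 arrays detected 10467 to 11878 probes above background, and arrays of a group correlated at 0.981 to 0.993. Control replicates 2 and 3 were the brightest before normalization: the upper quartile of their raw intensities was 390.1 and 388.3, and the highest among the remaining 10 arrays was 306.4. Map2k2, the gene of MEK2, was read as a check of the labels. It fell by 1.02 on the log2 scale in the Mek1-heterozygous lungs (SE 0.12, adjusted p = 0.00182) and by 0.74 in the double mutants (SE 0.12, adjusted p = 0.00709), and neither mutant group overlapped the controls. These values come from its brightest probe, which stayed above background on all 4 arrays of both Mek2-/- groups. The means were 10.58 and 10.85 against 11.59 in controls. Another Map2k2 probe that passed the filter was above background on 4 of 4 controls, 0 of 4 Mek1-heterozygous lungs and 1 of 4 double mutants. The position of these probes relative to the Mek2 deletion was not checked, so the lower signal does not by itself establish the null allele. Mek1 itself (Map2k1) had a probe that did not rise above background on any array, so its deletion was not checked here. Unless stated otherwise, a level is a background-corrected, quantile-normalized log2 intensity of the brightest probe of a gene. A difference is the gap between group means of 4 arrays each, and adjusted p comes from limma with Benjamini-Hochberg adjustment over all 8311 genes. A gene was taken to have changed at an adjusted p below 0.05. Levels of different probes are not compared with each other.

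Muc1 was the gene of the set that changed. Its level was 9.52, 9.46, 9.52 and 9.55 in the 4 controls, 9.90, 9.88, 9.96 and 9.35 in the Mek1-heterozygous lungs, and 9.84, 10.19, 10.06 and 10.24 in the double mutants. Every double mutant lay above every control, and the heterozygous lungs overlapped both. Against control, Muc1 rose by 0.57 on the log2 scale in the double mutants (SE 0.133, 95% interval 0.28 to 0.86, adjusted p = 0.0353), a 1.48-fold difference. Against the heterozygous lungs it was 0.31 higher (interval 0.02 to 0.60, adjusted p = 0.381), and the heterozygous lungs were 0.26 above control (interval -0.03 to 0.55, adjusted p = 0.338), neither past the threshold. Whole lung RNA was measured, so more cells that express a gene and more RNA per cell cannot be told apart, here or for any gene below.

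The array carried 4 Muc1 probes, and all passed the filter. In a fit over all 11182 named probes that passed, their double mutant minus control differences were 0.46, 0.57, 0.57 and 0.61, with adjusted p of 0.0641, 0.0618, 0.0414 and 0.0226. On each of the 4 probes all double mutants lay above all controls. Of the 4 probes 2 passed the threshold, in a fit in which 2.67% of all probes passed. The Muc1 call also depended on single arrays. It was lost without control replicate 1, 2, 3 or 4 (adjusted p = 0.0602, 0.104, 0.0905 and 0.0731) and without double mutant replicate 2, 3 or 4 (adjusted p = 0.095, 0.0764 and 0.104), while the difference stayed between 0.52 and 0.65 in all 12 single omissions. It was also lost without both of the brightest controls (0.55, adjusted p = 0.264), and over all 26 alternatives the adjusted p ranged from 0.00696 to 0.264.

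Napsa showed the widest gap to control in the set without passing the threshold. Its level was 8.51, 8.35, 7.68 and 7.87 in the controls, 8.50, 8.52, 8.92 and 7.64 in the Mek1-heterozygous lungs, and 8.80, 9.004, 8.99 and 9.28 in the double mutants. Every double mutant again lay above every control, but heterozygous replicate 3 reached into the double mutant range. The double mutant minus control difference was 0.92 (SE 0.244, interval 0.39 to 1.44, adjusted p = 0.0593), a 1.89-fold difference. The other comparisons gave 0.62 for double mutant minus heterozygous (adjusted p = 0.332) and 0.29 for heterozygous minus control (adjusted p = 0.581).

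All 3 Napsa probes passed the filter, and on each of them the double mutants lay above the controls. In the fit over probes the double mutant minus control differences were 0.92, 0.94 and 0.79, with adjusted p of 0.0640, 0.04998 and 0.0553. On the probes other than the brightest, all double mutants also lay above all heterozygous lungs. Those differences were 0.82 and 0.68 (adjusted p = 0.183 and 0.200 in the same fit). For double mutant minus control, the probe with the difference of 0.94 passed narrowly and the others missed narrowly. On the brightest probe the gene passed without control replicate 1 (adjusted p = 0.0446), without heterozygous replicate 3 (0.0412) or without heterozygous replicate 4 (0.0183), and not in the other 9 single omissions.

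**Figure D1:**
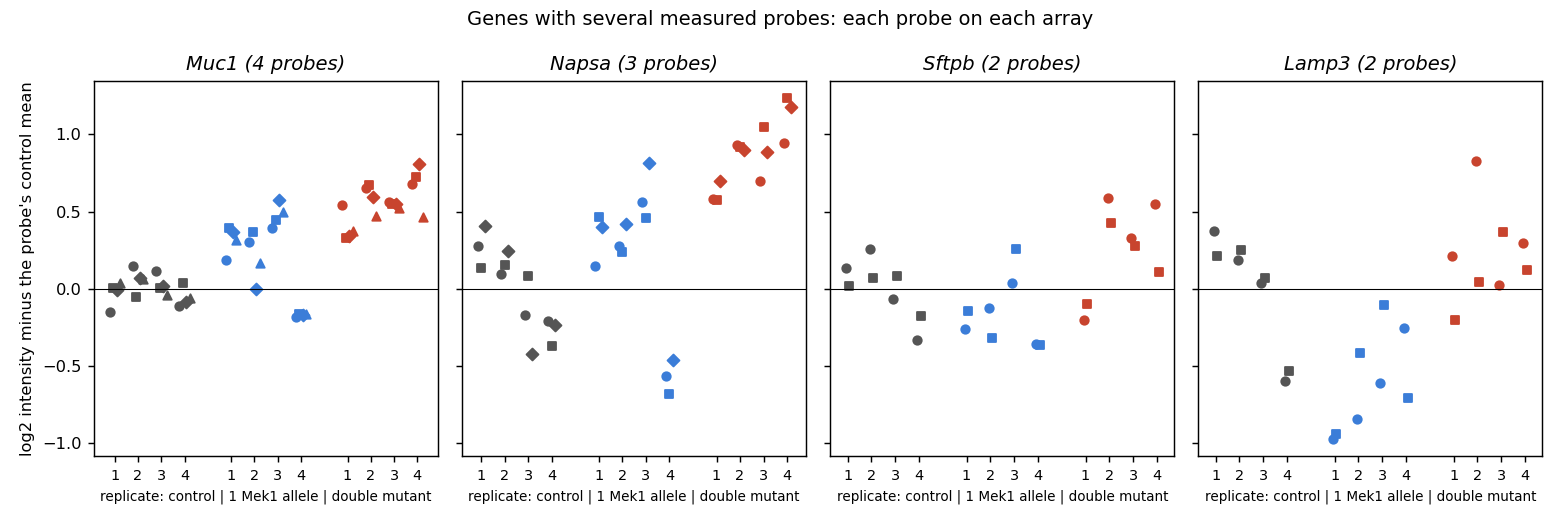
Log2 intensity minus the control mean of the same probe, on each array (replicates 1 to 4 of each genotype along the x axis), for the 4 genes with several measured probes, with each marker shape a probe. On all 4 Muc1 and all 3 Napsa probes the 4 double mutants lie above the 4 controls, and heterozygous replicate 4 lies low.

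The surfactant proteins themselves did not pass the threshold. Sftpb was at 9.37, 9.49, 9.17 and 8.90 in the controls, 8.97, 9.11, 9.27 and 8.87 in the Mek1-heterozygous lungs, and 9.03, 9.82, 9.56 and 9.78 in the double mutants. Of the double mutants, 3 lay above all 8 other lungs and replicate 1 lay among them. The difference to control was 0.32 (SE 0.176, interval -0.06 to 0.69, adjusted p = 0.347), and that to the heterozygous lungs 0.49 (interval 0.11 to 0.87, adjusted p = 0.284). The second Sftpb probe gave 0.18 and 0.32 (adjusted p = 0.559 and 0.436 in the fit over probes).

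Sftpc, the classical marker of the distal tip and of type 2 cells, was at 12.50, 12.42, 12.78 and 11.86 in the controls, 12.56, 12.50, 12.35 and 12.33 in the Mek1-heterozygous lungs, and 12.26, 12.69, 12.94 and 12.78 in the double mutants. The 3 groups overlapped widely. The double mutants were 0.28 above control (SE 0.180, interval -0.11 to 0.66, adjusted p = 0.436) and 0.23 above the heterozygous lungs (adjusted p = 0.687). The interval to control covers differences from a small decrease to a 0.66 increase, so it does not show that the levels were alike.

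Abca3, the lamellar body lipid transporter, was at 9.37, 9.67, 9.60 and 9.36 in the controls, 9.53, 9.46, 9.50 and 9.41 in the Mek1-heterozygous lungs, and 9.37, 10.07, 9.82 and 9.89 in the double mutants. As with Sftpb, 3 double mutants lay above all 8 other lungs and replicate 1 did not. The differences were 0.29 to control (SE 0.135, interval 0.00 to 0.58, adjusted p = 0.258) and 0.31 to the heterozygous lungs (adjusted p = 0.381). Control replicate 4, heterozygous replicate 4 and double mutant replicate 1 were each the lowest array of their group for Sftpb and for Abca3.

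Lamp3 showed its widest gap between the 2 mutant groups. Its level was 6.36, 6.17, 6.02 and 5.39 in the controls, 5.01, 5.14, 5.38 and 5.73 in the Mek1-heterozygous lungs, and 6.20, 6.82, 6.01 and 6.28 in the double mutants. All double mutants lay above all heterozygous lungs, and the controls overlapped both. The double mutant minus heterozygous difference was 1.01 (SE 0.223, interval 0.53 to 1.49, adjusted p = 0.0644), and the heterozygous minus control difference was -0.67 (interval -1.15 to -0.19, adjusted p = 0.157). The probe is dim: it was above background on all 4 controls and all 4 double mutants but on 1 of 4 heterozygous arrays. The second Lamp3 probe gave 0.63 (adjusted p = 0.251) and -0.54 (adjusted p = 0.211) in the fit over probes, with the same direction. On that probe the 2 mutant groups overlapped, with heterozygous replicate 3 at 5.67 and double mutant replicate 1 at 5.58. Double mutant minus control was 0.34 (adjusted p = 0.436), and 0.08 on the second probe (adjusted p = 0.868). The double mutant minus heterozygous difference depended in size on how background was treated. It was 0.63 with an offset of 50, 0.40 with no background correction and 0.40 on the authors' log2 values (adjusted p = 0.0383, 0.0556 and 0.0579). With the main settings it passed without control replicate 4 (adjusted p = 0.0451), and in no other single omission.

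Lpcat1 was at 5.88, 5.80, 5.94 and 6.09 in the controls, 5.78, 5.19, 5.13 and 6.26 in the Mek1-heterozygous lungs, and 5.30, 6.27, 6.32 and 6.30 in the double mutants. The groups overlapped, with double mutant replicate 1 far below the other double mutants. Its differences were 0.12 to control (adjusted p = 0.845) and 0.46 to the heterozygous lungs (adjusted p = 0.543). It was above background on 4 controls, 2 heterozygous lungs and 3 double mutants.

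None of the 3 transcriptional regulators passed the threshold. Nkx2-1 was at 9.03, 9.93, 9.88 and 9.19 in the controls, 9.15, 9.49, 9.04 and 10.09 in the Mek1-heterozygous lungs, and 9.33, 9.61, 9.67 and 9.26 in the double mutants. The ranges overlapped fully, and the double mutant minus control difference was -0.04 (SE 0.243, interval -0.56 to 0.49, adjusted p = 0.957). Cebpa, at 5.30 to 5.46 in controls, 5.32 to 6.09 in heterozygous lungs and 5.14 to 6.08 in double mutants, overlapped as well (0.27, adjusted p = 0.492). It lay above background on 3, 4 and 3 arrays of the groups.

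Id2 was the gene of the set with the largest negative difference. It was at 7.68, 8.36, 8.47 and 7.56 in the controls, 8.21, 7.61, 7.47 and 8.14 in the Mek1-heterozygous lungs, and 7.45, 7.69, 7.68 and 7.04 in the double mutants. Control replicates 2 and 3 were high, and the double mutants overlapped the other controls. The double mutant minus control difference was -0.55 (SE 0.236, interval -1.06 to -0.05, adjusted p = 0.221), and that to the heterozygous lungs -0.39 (adjusted p = 0.580). The brightest arrays, control replicates 2 and 3, lay above the other controls by 0.79 for Id2 and by 0.80 for Nkx2-1. With array brightness as a covariate the double mutant minus control difference was -0.17 for Id2 and 0.38 for Nkx2-1. Without these arrays Nkx2-1 was at 0.36 in that comparison. The part of array brightness in these values was not tested further.

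**Figure D2:**
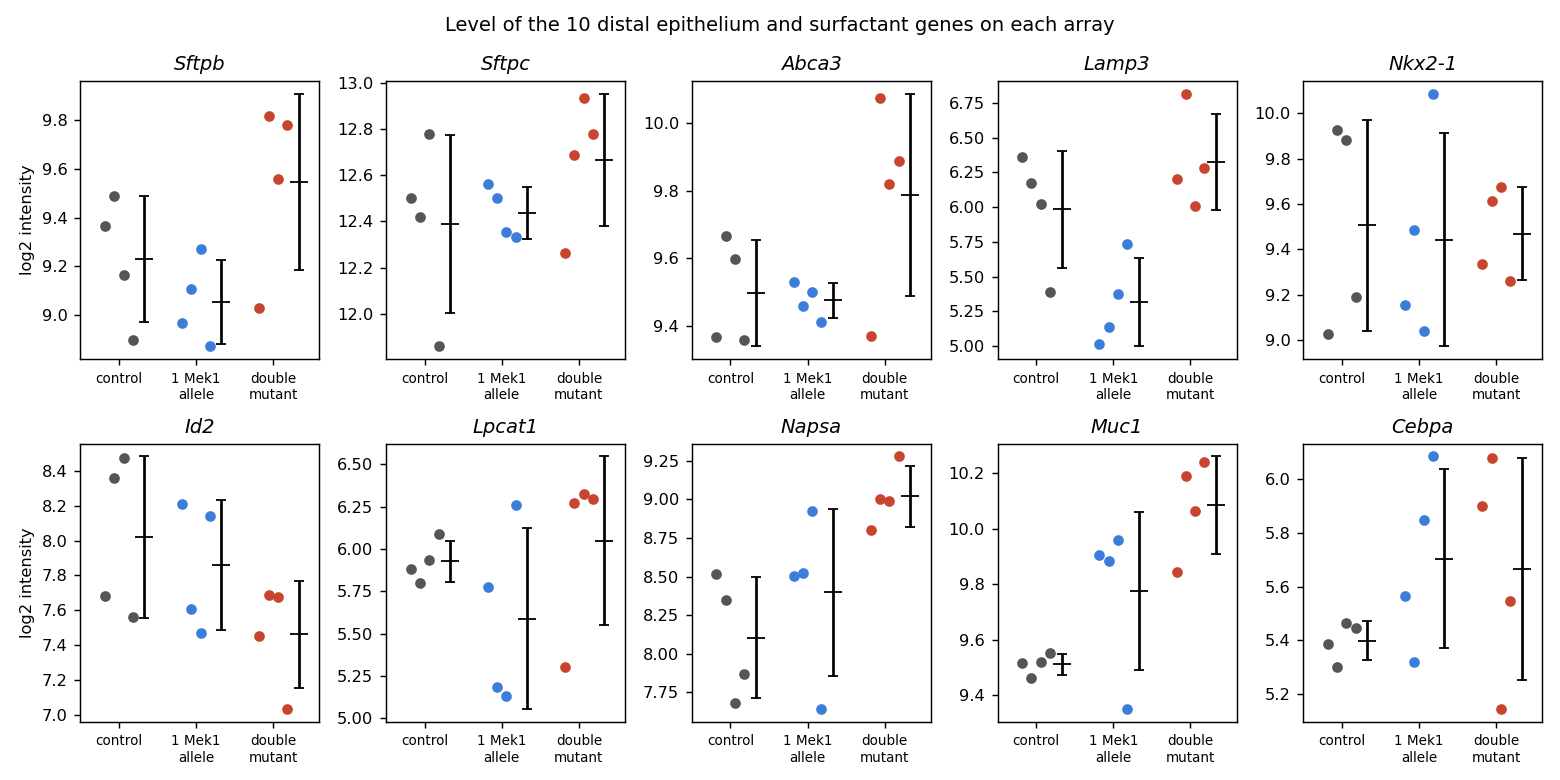
Level of each of the 10 genes on each array, as log2 intensity of the brightest probe, by genotype. For Muc1 and Napsa every double mutant point lies above every control point, and for Lamp3 every double mutant point lies above every heterozygous point.

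Taking the 10 genes by comparison, double mutant against control gave 1 gene higher (Muc1) and 0 lower, in a comparison in which 3.28% of all 8311 genes passed, 2.06% higher and 1.23% lower. Their groups did not overlap for 2 (Muc1 and Napsa, both higher), against 13.7% of all genes in either direction and 7.42% higher. The unadjusted p of limma was below 0.05 for 4 of the 10, against 19.4% of all genes. The difference was above 0 for 8 of the 10, against 49.3% of all genes, and the median difference was 0.28, with a median of -0.004 over all genes (quartiles -0.15 and 0.14). The exceptions were Id2 and Nkx2-1. Other lists described below leaned the same way in this comparison. The difference was above 0 for 15 of 18 further surfactant and type 2 genes and 12 of 17 tip genes. It was above 0 for 18 of 20 general epithelial, 9 of 9 airway, 7 of 8 alveolar type 1 and 5 of 6 mesothelial genes. For macrophage and blood, mesenchymal and endothelial genes it was above 0 for 5 of 7, 6 of 13 and 3 of 6.

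Double mutant against Mek1-heterozygous gave 0 of 10 past the threshold of limma, with 0.566% of all genes past it, and 5 of 10 with an unadjusted p below 0.05 (11.8% of all genes). The groups did not overlap for 1 gene (Lamp3, higher), against 6.34% of all genes in either direction and 4.2% higher. The median difference was 0.31, and the median over all genes 0.008. Here 8 of 10 differences were above 0, against 51.8% of all genes, with Id2 and Cebpa below. Mek1-heterozygous against control gave 0 of 10 past the threshold (0.734% of all genes) and 1 of 10 with an unadjusted p below 0.05 (Lamp3, lower, 16.9% of all genes). The groups overlapped for all 10 genes, while they did not overlap for 9.91% of all genes, and the median difference was -0.04, with 4 of 10 differences above 0 (47.9% of all genes). These comparisons share arrays in pairs, so their values are given side by side and are not independent.

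**Figure D3:**
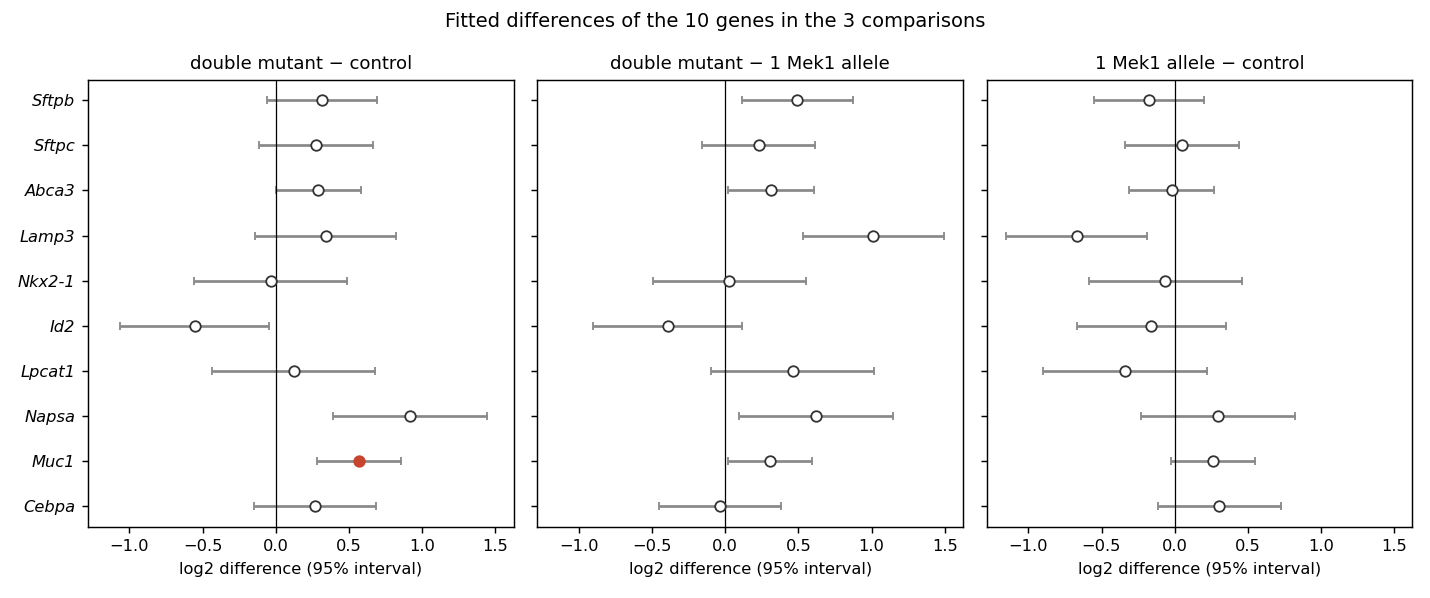
Difference in log2 intensity with its 95% interval for the 10 genes in the 3 comparisons, with filled red points for an adjusted p below 0.05. Muc1 in double mutant against control is the 1 filled point, and most intervals of the surfactant genes cross 0 in that panel.

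Some arrays stood low or high for several genes at once. Double mutant replicate 1 was the lowest of its group for 6 of the 10 genes (Sftpb, Sftpc, Abca3, Lpcat1, Napsa and Muc1), and heterozygous replicate 4 was the lowest for 5 and the highest for 4. Control replicate 4 was the lowest of its group for 5. As the mean deviation of the 10 genes from their control means, the double mutants were at -0.01, 0.47, 0.26 and 0.28, the heterozygous lungs at -0.04, -0.14, -0.07 and 0.03, and the controls at 0.00, 0.14, 0.10 and -0.24. Without double mutant replicate 1 the median difference of the 10 genes was 0.40 to control and 0.42 to the heterozygous lungs. These were the highest values over the 12 single omissions. The medians ran from 0.19 to 0.40 to control and from 0.25 to 0.42 to the heterozygous lungs.

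The genes whose pattern over the 12 arrays was most like that of Sftpb were Pglyrp1 (Pearson r 0.877), Abca3 (0.868) and Klhl17 (0.865). For Sftpc they were Plod3 (0.843), Lrrc46 (0.835) and Golga4 (0.832). For Muc1 they were G0s2 (0.967), Dgat2 (0.960) and Hdc (0.932). These are the highest correlations among all genes tested, leaving out symbols of predicted genes. They were taken over arrays that share group differences, and are given with no p. After group means were removed, r was 0.806 for Sftpb with Abca3, and 0.906, 0.980 and 0.786 for Muc1 with G0s2, Dgat2 and Hdc. Within the set, Napsa and Muc1 correlated at 0.881 over the 12 arrays, and at 0.733 after group means were removed. Other pairs went opposite ways: with group means removed, Nkx2-1 correlated at -0.65 with Napsa and at -0.58 with Muc1, and Id2 at -0.48 with Napsa.

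Of 17 measured transcription and signalling genes of the tip outside the set, 2 rose in the double mutants against control and 0 fell, where 3.28% of all genes passed. These were Klf5, a zinc finger factor of epithelial growth (0.84, adjusted p = 0.0111), and Foxp4, a forkhead factor of airway epithelium (0.85, adjusted p = 0.0225). The Foxp4 probe is dim: it was above background on 3 of 4 controls, 3 of 4 heterozygous lungs and 4 of 4 double mutants. The difference was above 0 for 12 of the 17, with a median of 0.11. The brightest members besides Klf5 were Dlk1, a Notch ligand relative, Bmp4, a morphogen of the tip, and Irx2, a homeobox factor, at 0.11, 0.13 and 0.09, none past the threshold (adjusted p = 0.729, 0.391 and 0.717). Sox9 and Etv5, classical tip markers named after their values were seen, gave -0.18 and 0.02 (adjusted p = 0.654 and 0.969). Klf5 passed in every single omission. Foxp4 did not pass without control replicate 2 (adjusted p = 0.0702), control replicate 3 (0.0505) or double mutant replicate 4 (0.0740), and neither passed without both of the brightest controls (0.143 and 0.160). In the comparisons with the heterozygous group, 0 of the 17 passed in limma, with an unadjusted p below 0.05 for 2 against double mutants and for 3 against control, shares near the 11.8% and 16.9% of all genes.

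Among 18 further surfactant and type 2 genes measured, 1 rose in the double mutants against control and 0 fell. It was Fgfr3, a fibroblast growth factor receptor (0.68, adjusted p = 0.0128), whose second probe gave 0.21 (adjusted p = 0.697 in the fit over probes). Fgfr3 did not pass without both of the brightest controls (0.62, adjusted p = 0.153). Cxcl15, a chemokine of lung epithelium, was higher in double mutants than in Mek1-heterozygous lungs (0.64, adjusted p = 0.0303) and was not past the threshold against control (0.31, adjusted p = 0.153). Cxcl15 did not pass without heterozygous replicate 3 or 4 (adjusted p = 0.0534 and 0.0809) or without double mutant replicate 1, 2 or 4 (0.0544, 0.0943 and 0.0922). The median of the 18 was 0.16 against control. Sftpa1, Sftpd and Slc34a2, which mark maturing type 2 cells, each had 1 probe, above background on 0 of 12 arrays.

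Markers of other cells were read in double mutant against control as well, where 3.28% of all genes passed. Of 20 general epithelial genes, 1 rose in the double mutants against control and 0 fell: Krt19, a keratin of simple epithelia and mesothelium (0.69, adjusted p = 0.0225), with a list median of 0.20. Krt19 did not pass without control replicate 2, 3 or 4 (adjusted p = 0.0754, 0.0742 and 0.0595) or double mutant replicate 1 or 4 (0.0561 and 0.0740). Of 9 airway genes, 7 rose, and the list median was 1.06. Among the 7 were Cyp2f2, a club cell cytochrome (1.35, adjusted p = 0.00393), and Cbr2, a club cell reductase (1.44, adjusted p = 0.00277). The 7 also held Tekt1, Spag6l, Mcidas and Rsph1, genes of ciliated cells (1.02, 1.17, 1.06 and 1.25, adjusted p = 0.00916, 0.0107, 0.0225 and 0.0263). Spag6l and Mcidas were above background on all double mutants but not on all controls or heterozygous lungs. That airway list was assembled with results of these data known, and its count is not independent. It was 4 without double mutant replicate 4 and 1 without both of the brightest controls. Of 6 mesothelial genes 3 rose (Upk3b, Rspo1 and Krt19), or 1 without control replicate 3 and 0 without both of the brightest controls, and of 8 alveolar type 1 genes 1 rose (Emp2), which did not pass without control replicate 2, 3 or 4 or without any 1 double mutant (adjusted p 0.0590 to 0.124). Of 13 mesenchymal genes, 0 passed in limma and 2 had an unadjusted p below 0.05, against 19.4% of all genes. Scgb1a1 was above background on 3 of 12 arrays.

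As the mean deviation from control means, the general epithelial list lay at 0.18 to 0.24 in double mutants, -0.03 to 0.12 in Mek1-heterozygous lungs and -0.06 to 0.05 in controls. The airway list lay at 0.75 to 1.06, -0.14 to 0.21 and -0.23 to 0.12 in the same order. The mesothelial list lay at 0.21 to 0.44, -0.28 to 0.06 and -0.13 to 0.17, and the mesenchymal list at -0.14 to 0.08, -0.07 to 0.03 and -0.14 to 0.09. The macrophage and blood list lay at -0.05 to 0.75, -0.02 to 0.39 and -0.07 to 0.07, and the endothelial list at -0.15 to 0.08, -0.01 to 0.09 and -0.07 to 0.05. The macrophage and blood genes went opposite ways in the double mutants against control: C1qc, a complement gene of macrophages, rose by 0.81 (adjusted p = 0.00709), whereas the erythroid gene Slc4a1, which encodes a red cell membrane transporter, fell by 1.03 (adjusted p = 0.0116). Neither C1qc nor Slc4a1 passed without both of the brightest controls (adjusted p = 0.101 for each). The erythroid genes of the list were themselves split. In double mutant against control the globin gene Hbb-bh1 was at 1.065 (adjusted p = 0.0513) and Alas2 at -0.40 (adjusted p = 0.182), neither past the threshold. Of 6 endothelial genes 1 rose, the receptor gene Tie1 (0.34, adjusted p = 0.0420), which did not pass without control replicate 2, 3 or 4, without heterozygous replicate 1 or without any 1 double mutant (adjusted p 0.0505 to 0.135). MUC1 is made by airway epithelium as well as by distal epithelium, and the part of the airway, mesothelial, general epithelial, blood and endothelial genes in the Muc1 and Napsa differences was not tested. On double mutant replicate 1, 6 of the 10 genes were lowest. The general epithelial list stood at 0.20 there, the airway list at 0.78, the mesothelial list at 0.39 and the macrophage and blood list at 0.15. These lay within the range of the other double mutants. The remaining lists had their lowest double mutant value on that array. Further surfactant and type 2 genes stood at 0.03, tip genes at 0.12, alveolar type 1 at 0.18, mesenchymal at -0.14 and endothelial at -0.15. The cause was not tested.

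**Figure D4:**
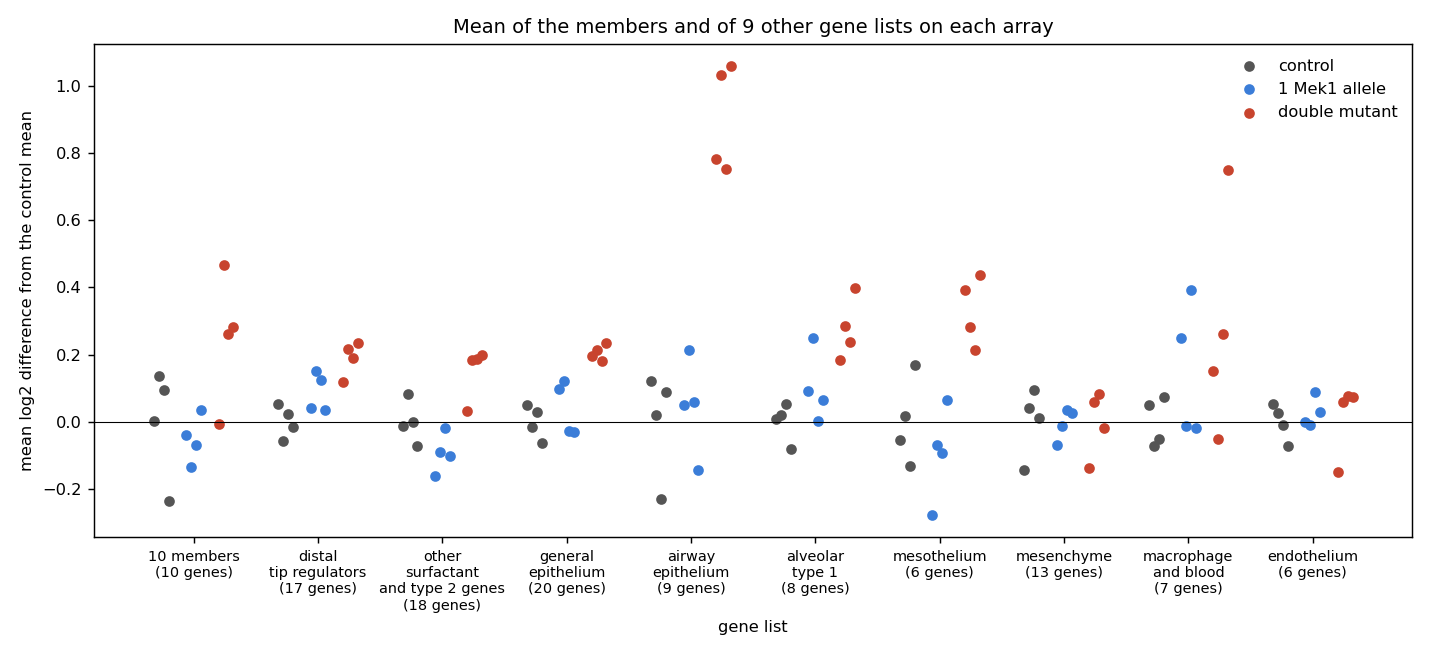
Mean deviation of each gene list from its control means on each array, as log2 difference, by genotype. The airway list separates the double mutants at 0.75 to 1.06, while the 10 surfactant and distal genes reach from -0.01 to 0.47 there and the mesenchymal list from -0.14 to 0.08.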

How the data were processed

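Per the file headers, the authors deposited 1 scanner table of the 12 arrays with a raw intensity and a detection p-value for each of 25697 probes, and a matrix of normalized log2 values whose steps no header or label states. Its column medians were 6.915 to 6.933, and each column lay within a median of 0.00161 to 0.00665 of the quantile-normalized log2 raw intensities, with the same ranking (Spearman 1). The values are thus close to quantile-normalized log2 intensities without background correction. The number of arrays limits the precision.

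The intensities were corrected with limma 3.58.1 (R 4.3.3) by normexp from the detection p-values with an offset of 16, then quantile-normalized on the log2 scale. A probe had to be above background (detection p below 0.01) on at least 4 of 12 arrays. The brightest probe on average stood for its gene. Groups came from the genotype labels. limma's linear model was fitted to all 12 arrays, with 9 residual degrees of freedom, and p-values were adjusted by Benjamini-Hochberg over 8311 genes. Tested on simulated data for double mutant against control with 200 changed genes among 8311, the fit recovered 49.7%, 90% and 99.8% of changes of 0.5, 1 and 2 log2, with 8.8 false of 168.3 calls on average. The simulated noise was drawn independently for each gene and array. Differences shared by the genes of an array, such as brightness, were not part of it, so these rates do not cover them.

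The members and the lists of other genes were chosen with earlier results of these data known. The genes named are the 10 members, the genes of the deleted loci and the driver, up to 6 genes per list past the threshold and up to 4 bright examples, and the 3 genes most like Sftpc, Sftpb and Muc1. Alternatives changed the background correction, its offset, the normalization, the filter, the probe rule, the arrays in the fit, array weights, a replicate block, array brightness, and left out each array in turn. A trend of the variance with intensity was added after seeing the data.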

Additional observations from a re-analysis of the deposited data

Results flagged for a closer look

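Of 30 gene-by-group sets of 4 arrays, 2 held an array far from the other 3, and chance alone flags about 1 set in 20. Lpcat1 on double mutant replicate 1 was at 5.30, the nearest double mutant being at 6.27, a gap that was 0.949 of the range of the group. Muc1 on Mek1-heterozygous replicate 4 was at 9.35, the nearest heterozygous array being at 9.88, a gap that was 0.875 of the range. Both ratios exceed the 95% critical value of Dixon's test for 4 samples.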

How the results depend on the processing

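Of 771 recomputed differences of the 10 genes (30 results under up to 26 alternatives), 716 kept their direction and their side of the threshold, 11 lost a call, 14 gained one and 30 changed sign. Muc1 in double mutant against control passed under 15 of 26 alternatives, and Napsa under 11 of 26. Lamp3 in double mutant against heterozygous passed under 3 of 25. Lamp3, Lpcat1 and Cebpa have no value where all 12 arrays had to be above background. The causes of the changes below were not tested.

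Double mutant against control gave 2 of the 10 genes under the filter on all 12 arrays, array weights, the authors' log2 values, the offset of 50, the mean of a gene's probes, no background correction, the 8 arrays alone and the variance trend. It gave 0 with the brightness covariate, with no filter and without the 2 brightest controls, and 0 to 2 in single omissions. Double mutant against heterozygous gave 1 with the offset of 50 and with the variance trend, and 0 to 1 in single omissions. The median of heterozygous against control was 0.22 without the 2 brightest controls, against -0.04.

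Over all genes, double mutant against control had 273 calls, and 85 with the brightness covariate, 613 with array weights, 434 with the authors' values, 429 with no background correction, 30 without the 2 brightest controls and 116 to 317 in single omissions. Double mutant against heterozygous had 47, and 84 with the offset of 50, 80 with no background correction, 30 with no filter, 1 on the 8 arrays, 25 with upper-quartile scaling, 71 with the trend, 8 without the 2 brightest controls and 2 to 46 in single omissions. There the share of higher calls was 74.5%, and 64% with upper-quartile scaling. It was also 40% of 5 calls without heterozygous replicate 4 and 33.3% of 3 calls without double mutant replicate 4, and the 1 call on the 8 arrays was lower. Heterozygous against control had 61, and 114 with the filter on all 12 arrays, 10 with the brightness covariate, 111 with array weights, 206 with the authors' values, 129 with the offset of 50, 227 with no background correction, 24 on the 8 arrays, 221 with the trend, 5 without the 2 brightest controls and 16 to 68 in single omissions. There 44.3% were higher, and 70% with the replicate block and 80% of 10 with the brightness covariate.

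Deviations of same-numbered arrays from their group means correlated at -0.23 to 0.18. The labels do not say what the replicate numbers stand for, and these correlations cannot decide whether they pair the samples. With the replicate block, 158, 11 and 20 genes were called in double mutant against control, double mutant against heterozygous and heterozygous against control, and 0 of the 10 genes in each. Muc1 had an adjusted p of 0.0789 there.

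Signs changed for differences that were all past no threshold. With the brightness covariate, heterozygous against control was 0.13 for Abca3, 0.45 for Id2, -0.12 for Napsa and 0.60 for Nkx2-1, and Nkx2-1 was -0.22 in double mutant against heterozygous and 0.38 in double mutant against control. Without the 2 brightest controls, heterozygous against control was 0.11 for Abca3, 0.24 for Id2 and 0.33 for Nkx2-1, and Nkx2-1 was 0.36 in double mutant against control. With array weights Sftpc was -0.00456 in heterozygous against control. In single omissions, heterozygous against control ran from -0.068 to 0.035 for Abca3, -0.28 to 0.076 for Nkx2-1 and -0.13 to 0.18 for Sftpc. Double mutant against heterozygous ran from -0.17 to 0.14 for Cebpa and -0.11 to 0.24 for Nkx2-1, and double mutant against control from -0.20 to 0.10 for Nkx2-1. Lamp3, Lpcat1 and Cebpa were not above background on every array, which limits their values.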
